A study of Arabidopsis thaliana with 16 samples.

Results

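The 4 nuclear genes of the Rubisco small subunit (RBCS1A, RBCS1B, RBCS2B and RBCS3B) and the gene of Rubisco activase (RCA) were examined in seedlings of Arabidopsis thaliana that carry mutations of the nuclear basket. These 5 genes were taken by their identifiers from 32833 in the files, and all 5 were among the 22427 genes with enough counts to be tested. RNA of whole 9-day-old seedlings, untreated and grown on medium with 1% sucrose, was sequenced in 16 libraries, 2 for each of 8 genotypes. Besides the wild type Col-0 (WT) these were the single mutants nup136, nup82 and nup50c, the double mutants nup82 nup136, nup50c nup136 and nup50c nup82, and the mutant nup50c nup82 nup136, here called the triple mutant. The sources used here do not give the alleles. The mutated genes encode proteins of the basket on the nucleoplasmic side of the nuclear pore. Nothing in the labels ties the libraries of a genotype to separate cultures, so p-values measure only the spread between these samples, which may be technical. In RNA of whole seedlings, fewer cells of a type and less RNA per cell cannot be told apart.

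Rubisco fixes CO2 in the Calvin-Benson cycle. It is built from large subunits, made in the plastid from the plastid gene RBCL, and small subunits, made in the cytosol from the nuclear RBCS family and imported into the plastid. Rubisco activase is an ATP-driven enzyme that frees the active sites of Rubisco from inhibitory sugar phosphates. Plant RBCS genes are classic light-induced genes, and their promoters hold the G-box, bound by bZIP and bHLH factors, and the I-box, of the kind bound by GATA factors.

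RBCS1A (AT1G67090) lies alone on chromosome 1, from 25048158 to 25049667. The other 3 genes lie next to each other on chromosome 5: RBCS3B (AT5G38410) from 15376988 to 15378642, RBCS2B (AT5G38420) from 15380907 to 15382071 and RBCS1B (AT5G38430) from 15383167 to 15385320, with 2264 and 1095 bases between them. RCA (AT2G39730) lies on chromosome 2, from 16570746 to 16573692. All 5 are on the minus strand of TAIR10. The 4 RBCS genes have 3 coding exons each. The coding sequence of RBCS1A shares 90.42% to 90.61% of its bases with the others, and the genes on chromosome 5 share 96.7% to 97.25% with each other. The second coding exon is shown because it is of equal length in the 4 genes, 135 bases, and shows how little separates the reads of the paralogs. Capitals mark the 14 positions at which the genes differ. The sequences are the RefSeq reference of the TAIR10.1 assembly, read 5′ to 3′ on the coding strand, at chr1:25048838-25048972, chr5:15384761-15384895, chr5:15381583-15381717 and chr5:15377911-15378045.
RBCS1A: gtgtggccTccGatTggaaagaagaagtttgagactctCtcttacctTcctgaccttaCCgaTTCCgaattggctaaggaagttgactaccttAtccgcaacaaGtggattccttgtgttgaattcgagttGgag
RBCS1B: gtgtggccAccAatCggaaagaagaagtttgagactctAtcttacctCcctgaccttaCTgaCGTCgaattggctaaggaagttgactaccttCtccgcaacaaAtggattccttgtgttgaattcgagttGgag
RBCS2B: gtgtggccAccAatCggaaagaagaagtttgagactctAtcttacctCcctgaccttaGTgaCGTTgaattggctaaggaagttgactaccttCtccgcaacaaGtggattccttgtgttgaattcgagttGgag
RBCS3B: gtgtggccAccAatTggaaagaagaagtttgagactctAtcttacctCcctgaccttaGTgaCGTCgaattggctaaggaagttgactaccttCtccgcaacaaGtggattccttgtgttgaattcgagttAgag
RBCS1A differs from each other gene at 11 or 12 of these bases, and the genes on chromosome 5 differ from each other at 3 or 4. Over whole transcripts, 4.8% of the 150-base windows of RBCS1B and 5.42% of those of RBCS3B occur in another RBCS gene, and none of those of RBCS1A and RBCS2B do. Of 50-base windows the shares are 21.4% for RBCS2B, 14.6% for RBCS3B, 13.9% for RBCS1B and 1.42% for RBCS1A, so which gene shares most depends on the window. The sources used here do not say how reads with several alignments were counted, so values of single genes on chromosome 5 are less certain than the sum of the family.

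The 500 bases before each start codon were searched on both strands for the G-box, CACGTG, and the I-box, GATAAG or its complement CTTATC. For each gene the window of 30 bases with the G-box, or for RBCS1B with its I-boxes, is shown to compare the arrangement, with matches in capitals.
RBCS1A: GATAAGattcatggaattatcttcCACGTG
RBCS2B: GATAAGattatggagttttctgcCACGTGa
RBCS3B: GATAAGataatggagttttctgcCACGTGg
RBCS1B: caaaagaaaGATAAGATAAGggtgtcaaca
RCA: ataaacatattcCACGTGgaccaatcaaaa
RBCS1A (chr1:25049503-25049532), RBCS2B (chr5:15382188-15382217) and RBCS3B (chr5:15378517-15378546) hold an I-box followed by a G-box within 30 bases. Between the window shown and the start codon, RBCS1A holds a further I-box, and RBCS2B and RBCS3B each hold a further pair, CTTATC and GATAAG. RBCS1B (chr5:15385305-15385334) holds a pair of overlapping I-boxes and no match to the G-box letters in the 500 bases. RCA holds the G-box shown (chr2:16573579-16573608) and an I-box farther upstream. Of 27443 genes searched in the same way, 9.34% held a G-box, 23.5% an I-box, and 0.35% both within 30 bases. The windows shown overlap 2 of 3 annotated transcripts of RCA, 1 of 2 of RBCS1A, 1 of 2 of RBCS1B, 1 of 3 of RBCS3B and 0 of 1 of RBCS2B. The bases searched are thus not all outside the annotated transcripts. A match describes these letters and is not evidence that a factor binds there.

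Each library held 37923632 to 46194172 counts. RBCS transcripts took 1.42% to 2.1% of them, and RBCS1A ranked 1 or 2 among all genes by its count in every library. Levels are CPM, counts relative to the library total after TMM scaling, and every mean is given with its SD over n = 2 libraries. NUP50C stood at 40.6 and 43.3 CPM in WT and between 8.77 and 15.0 CPM in the libraries that carry nup50c. NUP136 stood at 49.1 and 46.8 CPM in WT and at 33.9 and 23.4 CPM under the label nup82 nup136. In the other carriers of nup136 it stood between 18.6 and 21.8 CPM. NUP82 stood at 29.5 and 35 CPM in WT and at 21.7 and 21.4 CPM in nup82, but at 26.0 to 37.5 CPM in the other libraries labelled with nup82. For those libraries every direction below rests on the label, and counts over a whole gene do not separate transcripts of a disrupted allele. Whole seedlings also hold roots, and 9 of 14 root markers were lower and 1 higher in the triple mutant than in WT. Of all genes tested, 24.3% were lower and 23.3% higher there. The 3 seed storage and oil body markers summed to 0 to 46 counts in 12 libraries, to 1690 and 3984 under the label nup82 nup136, and to 1419 and 1158 in the triple mutant.

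Compared per length, the family had a steep order of levels in WT. RBCS1A stood at 8978 ± 473 CPM per kb and RBCS3B at 4523 ± 246 CPM per kb. RBCS2B, at 2077 ± 83.6, and RCA, at 2035 ± 30.2 CPM per kb, did not differ beyond their spread, and RBCS1B was lowest at 362 ± 45.8 CPM per kb. In the triple mutant the order was RBCS1A at 7497 ± 221, RBCS3B at 2530.0 ± 18.8, RCA at 1410.5 ± 11.3, RBCS2B at 873 ± 48.9 and RBCS1B at 333 ± 13.2 CPM per kb, with RCA and RBCS2B now apart by more than their spread. The closeness of RBCS2B and RCA in WT rests on the lengths used, 935 and 2101 bases, against coding lengths of 546 and 1425 bases. Not divided by length, RCA stood at 4276 ± 63.4 CPM and RBCS2B at 1942 ± 78.2 CPM in WT. RBCS1B was divided by 1894 bases, with a coding length of 546 bases. It was also lowest in WT without that division, at 686 ± 86.7 CPM.

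**Figure D1:**
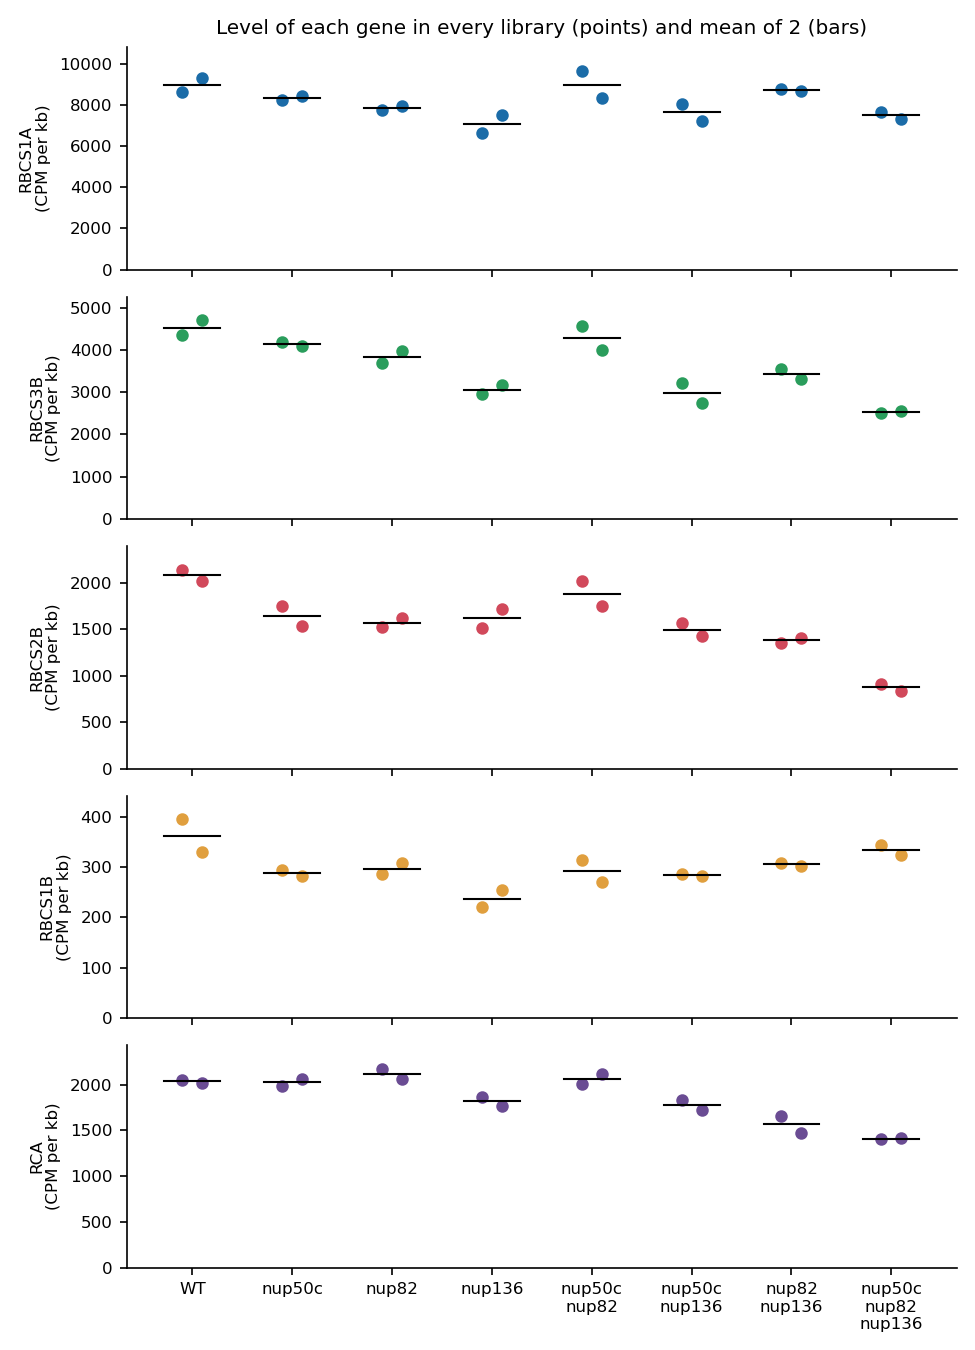
Level of each gene in CPM per kb (vertical axes, from 0) in the 8 genotypes, with points for the libraries and bars for the mean of 2. RBCS2B, RBCS3B and RCA are lowest in the triple mutant, while the RBCS1B points of the triple mutant, at 343 and 324 CPM per kb, lie within or next to the WT range of 330 to 394 CPM per kb.

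RBCS2B, a small subunit gene of the chromosome 5 cluster, had the largest fall of the family. It stood at 1997 and 1887 CPM in WT and at 848 and 784 CPM in the triple mutant, 42.0% of the WT mean. The single mutants held 1631 and 1437 CPM (nup50c), 1421 and 1509 CPM (nup82) and 1418 and 1605 CPM (nup136). Every single-mutant library was thus below both WT libraries. The double mutants held 1887 and 1630.3 CPM (nup50c nup82), 1459 and 1333 CPM (nup50c nup136) and 1262 and 1313 CPM (nup82 nup136), and of these only nup50c nup82 reached the WT range. Against WT, RBCS2B fell by 1.25 ± 0.08 (SE) on the log2 scale in the triple mutant (edgeR quasi-likelihood test, Benjamini-Hochberg adjusted p = 6.57e-12). It also fell in the 3 single mutants (-0.34 ± 0.08 in nup50c, -0.41 ± 0.08 in nup82 and -0.36 ± 0.08 in nup136, adjusted p = 0.0315, 0.011 and 0.00384). The calls of the single mutants depended on single libraries: that of nup50c was lost without either WT library (0.29 and 0.0962), nup50c replicate 2 (0.484) or either triple mutant library (0.0516 and 0.0515), that of nup82 when any library of WT or nup82 was left out (0.0537 to 0.184), and that of nup136 without WT replicate 1 (0.0579) or nup136 replicate 1 (0.0648). The change was -0.48 ± 0.08 in nup50c nup136 and -0.59 ± 0.08 in those labelled nup82 nup136 (adjusted p = 0.000122 and 1.02e-05), while those labelled nup50c nup82 stood at -0.14 ± 0.08 (adjusted p = 0.517).

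RBCS3B, the second most abundant small subunit transcript, fell wherever nup136 was mutated. It stood at 6132 and 6623 CPM in WT and at 4153 and 4477 CPM in nup136. The nup136 double mutants held 4544 and 3885 CPM (nup50c nup136) and 4988 and 4684 CPM (nup82 nup136), and the triple mutant 3549 and 3586 CPM. The 8 libraries that carry nup136 were all below the 8 that do not, whose lowest was 5211 CPM in nup82. The triple mutant changed by -0.84 ± 0.08 against WT (adjusted p = 3.42e-09), nup136 by -0.56 ± 0.08 (1.77e-05), nup50c nup136 by -0.60 ± 0.08 (3.58e-06) and the libraries labelled nup82 nup136 by -0.40 ± 0.08 (0.00066). The other genotypes held 5893 and 5775 CPM (nup50c), 5211 and 5589.9 CPM (nup82) and 6435 and 5643 CPM (nup50c nup82), and did not pass the test (adjusted p = 0.63, 0.152 and 0.764).

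RBCS1A, the most abundant small subunit transcript, changed less. It stood at 10960.2 and 11809 CPM in WT, 10440.1 and 10681 CPM in nup50c, 9822 and 10103 CPM in nup82 and 8428 and 9496 CPM in nup136. The double mutants held 12248 and 10560.5 CPM (nup50c nup82), 10226 and 9153 CPM (nup50c nup136) and 11111 and 11004 CPM (nup82 nup136), and the triple mutant 9704 and 9308 CPM. The libraries labelled nup82 nup136 lay inside the WT range, and all libraries of the single mutants, nup50c nup136 and the triple mutant lay below it. RBCS1A fell by 0.35 ± 0.08 on the log2 scale in nup136 (adjusted p = 0.00293), by 0.23 ± 0.08 in nup50c nup136 (0.0284) and by 0.26 ± 0.08 in the triple mutant (0.00718). In the libraries labelled nup82 nup136 the change was -0.04 ± 0.08 (adjusted p = 0.759). These calls were small: without WT replicate 2 none of the 3 passed (adjusted p = 0.0613, 0.229 and 0.0965), and they were also lost without nup136 replicate 1 (0.0575), nup50c nup136 replicate 2 (0.267) and triple mutant replicate 2 (0.0859), respectively.

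RBCS1B, the least abundant small subunit gene, followed another course. It was lowest in nup136, at 418 and 481 CPM, against 747 and 624 CPM in WT, and stood at 649 and 614 CPM in the triple mutant. The WT libraries lay farther apart than those of the triple mutant, and the triple mutant overlapped them. The remaining genotypes, at 513 to 593 CPM, were all below WT and above nup136. RBCS1B fell by 0.61 ± 0.09 on the log2 scale in nup136 (adjusted p = 1.95e-05) and by 0.35 ± 0.09 in nup50c nup136 (adjusted p = 0.00362, but 0.147 without WT replicate 1). In the triple mutant the change was -0.12 ± 0.09 (adjusted p = 0.266), or 0.02 without WT replicate 1. It passed narrowly in nup50c and those labelled nup82 nup136 (-0.33 ± 0.09 and -0.25 ± 0.09, adjusted p = 0.0446 and 0.0456). Without WT replicate 1 these became 0.61 and 0.535, and both were also lost without either library of nup82, of nup50c nup136, of the triple mutant or of the mutant itself, the latter also without either nup50c library, with library totals as the only scaling (0.105) and when fitted with WT alone (0.0985).

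RCA, the activase gene, fell in the double mutants that carry nup136 and in the triple mutant. It stood at 4320.5 and 4231 CPM in WT, and the genotypes without nup136 held 4177 to 4564 CPM. In nup136 it stood at 3915 and 3722 CPM, in nup50c nup136 at 3849 and 3609 CPM, in those labelled nup82 nup136 at 3477 and 3098 CPM, and in the triple mutant at 2947 and 2980.2 CPM. All 8 libraries that carry nup136 were below all others. The log2 change against WT was -0.53 ± 0.07 in the triple mutant (edgeR, adjusted p = 8.1e-07) and -0.38 ± 0.07 in the libraries labelled nup82 nup136 (adjusted p = 0.000295). In nup50c nup136 it was -0.20 ± 0.07 (adjusted p = 0.04, and 0.0903 with library totals as the only scaling), a call also lost without either library of WT (0.177 and 0.109) or of the triple mutant (0.0552 and 0.0554) or without nup50c nup136 replicate 2 (0.236). In nup136 alone it was -0.16 ± 0.07 (adjusted p = 0.126).

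**Figure D2:**
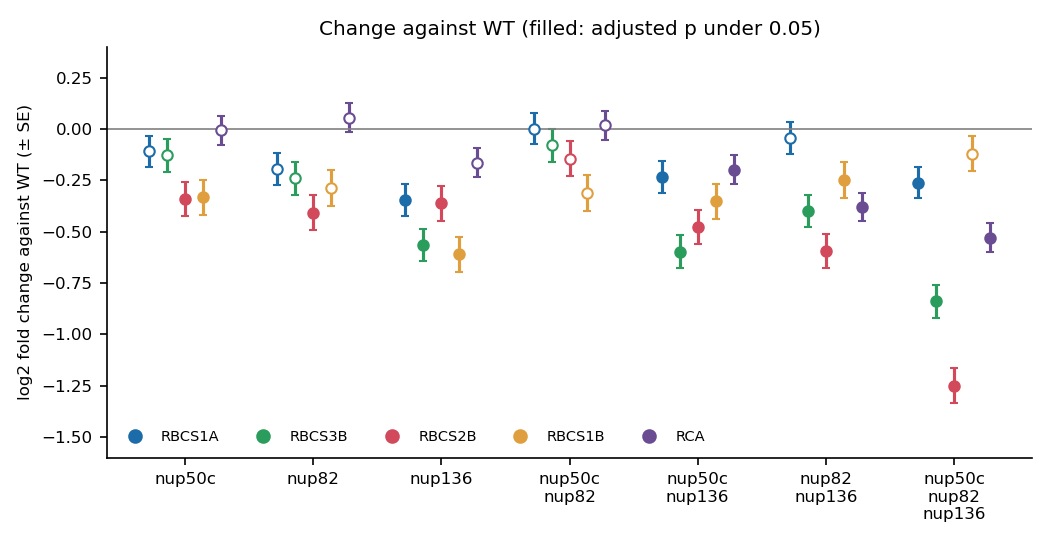
Log2 fold change against WT with its SE (vertical axis) of the 5 genes in the 7 mutant genotypes, filled where the adjusted p was under 0.05. In the triple mutant the genes spread from -0.12 for RBCS1B to -1.25 for RBCS2B, wider than in any other genotype.

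No member passed the test as higher than WT, where the share of all genes that did was 0.923% in nup50c, 0.856% in nup82, 6.56% in nup136, 0.562% in nup50c nup82, 11.7% in nup50c nup136, 23.3% in the triple mutant and 7.95% where nup82 nup136 was the label. In the triple mutant 4 of 5 members were lower, where 24.3% of all genes tested were lower. In nup136 the count was 4 of 5 (7.83% of all genes), or 2 without nup136 replicate 1. In nup50c nup136 it was 5 of 5 (13.1% of all genes), or 3 with library totals as the only scaling, without either WT library or without nup50c nup136 replicate 2. In the libraries labelled nup82 nup136 the count was 4 of 5 (11.3% of all genes). In nup50c 2 of 5 were lower (0.812% of all genes), or 0 without WT replicate 1, nup50c replicate 2 or either triple mutant library, and 1 without WT replicate 2, nup50c replicate 1 or any library of nup82 or nup50c nup136. In nup82 1 of 5 was lower (0.535% of all genes), or 0 without either library of WT or of nup82. In the libraries labelled nup50c nup82 0 of 5 passed the edgeR test (0.343% of all genes were lower), RBCS1B having an unadjusted p of 0.00138 and passing with the DESeq2 Wald test (adjusted p = 0.0246), without the low-count filter, and without nup136 replicate 1. These comparisons share the WT libraries and are not independent of each other.

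The triple mutant was also compared with each double mutant, in the fit of all 16 libraries, whose estimate of the spread includes WT. Against nup50c nup82, 4 of 5 members were lower (24% of all genes were lower), RBCS2B at -1.11 ± 0.08, RBCS3B at -0.76 ± 0.08, RCA at -0.55 ± 0.07 and RBCS1A at -0.26 ± 0.08 (adjusted p = 6.74e-11, 2.05e-08, 5.03e-07 and 0.00687). The RBCS1A call was lost without nup50c nup82 replicate 1 (0.191) or triple mutant replicate 2 (0.101). Against nup50c nup136, 3 of 5 were lower (11.9% of all genes), RBCS2B at -0.77 ± 0.08, RCA at -0.33 ± 0.07 and RBCS3B at -0.24 ± 0.08 (adjusted p = 1.57e-07, 0.000963 and 0.0297), the last lost without nup50c nup136 replicate 1 or either triple mutant library. Against the libraries labelled nup82 nup136, 3 of 5 were lower (14.9% of all genes), RBCS2B at -0.66 ± 0.08, RBCS3B at -0.44 ± 0.08 and RBCS1A at -0.22 ± 0.08 (adjusted p = 1.4e-06, 0.000137 and 0.034). That RBCS1A call was lost when any of the 4 libraries compared was left out, with adjusted p between 0.0635 and 0.206. RBCS1B had a positive log2 change in all 3 comparisons, 0.19, 0.23 and 0.13, and did not pass (adjusted p = 0.0725, 0.0548 and 0.286). Whether it passed as higher depended on the setting. Against nup50c nup82 it passed in a fit of only those genotypes (adjusted p = 0.0133), without the low-count filter (0.02), without nup50c nup82 replicate 1 (0.0264) and without nup136 replicate 1 (0.0405). Against nup50c nup136 it passed in a fit of only those genotypes (0.00721), without the filter (0.0118), with the DESeq2 Wald test (0.04), with a replicate block (0.0471) and when any 1 library of WT, nup136 or nup82 nup136 was left out (0.0312 to 0.0487).

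Averaged over the 4 backgrounds in which each mutation occurs, carriers of nup136 had lower RBCS3B (-0.49 ± 0.04, adjusted p = 1.36e-10), RBCS2B (-0.45 ± 0.04, 1.74e-09), RCA (-0.33 ± 0.04, 1.24e-08) and RBCS1A (-0.15 ± 0.04, 0.00263). That is 4 of 5 members, against 26.9% of all genes that were lower. RBCS1B, at -0.10 ± 0.04, did not pass (adjusted p = 0.0559). Carriers of nup50c had lower RBCS2B (-0.21 ± 0.04, adjusted p = 0.00074), 1 of 5 members against 8.8% of all genes, and RBCS3B was near the threshold (-0.11, adjusted p = 0.0565). Carriers of nup82, by their labels, had lower RBCS2B (-0.30 ± 0.04, adjusted p = 1.08e-05) and RCA (-0.12 ± 0.03, adjusted p = 0.0235), 2 of 5 members against 8.57% of all genes. The RCA call of nup82 was lost when any of 8 libraries was left out (WT replicate 1, nup50c replicate 2, nup82 replicate 2, nup136 replicate 1, nup50c nup82 replicate 1, nup50c nup136 replicate 1 and both triple mutant libraries; adjusted p = 0.0514 to 0.0725). RBCS2B was thus lower with each of the 3 mutations on average, but not in every background. Its mean was 1759 ± 182 CPM under the label nup50c nup82, above 1534 ± 137 CPM in nup50c and 1465 ± 62.3 CPM in nup82. In the other backgrounds the mean was lower with nup50c or nup82 added. The RBCS1A mean was 11057 ± 76.3 CPM under the label nup82 nup136, above 9963 ± 198 CPM in nup82. It was lower with nup136 in the other backgrounds. These double mutants were not tested against their single mutants.

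The makeup of the RBCS pool, the summed counts per length of the 4 genes, shifted toward RBCS1A. RBCS1A made up 55.7% and 56.9% of the pool in the WT libraries and 67.0% and 66.5% in the triple mutant. Its share lay at 58.7% and 59.3% in nup136, at 61.4% and 61.8% in nup50c nup136 and at 62.8% and 63.3% where nup82 nup136 was the label. In each of the 4 backgrounds the libraries with nup136 lay above those without it. The mean share was 62.6% in the 8 carriers of nup136 and 57.6% in the 8 non-carriers, a difference of 5.00 percentage points (exact two-sided permutation test within backgrounds, p = 0.00154, the smallest that its 1296 arrangements allow; adjusted p = 0.0108 over 21 tests). RBCS3B took the opposite course, with 24.2% in carriers and 28.3% in non-carriers (-4.04 points, adjusted p = 0.0108 by the exact permutation test). The log2 ratio of RBCS1A to the sum of the chromosome 5 genes was higher by 0.30 in carriers of nup136 (adjusted p = 0.0108 by the exact permutation test). This ratio restates the RBCS1A share on another scale, so it is not a further result. The shares of the RBCS genes also make up the whole pool, so a rise of any share is matched by falls in others. The share tests here and below are thus not independent of each other.

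RBCS2B made up 13.8% and 12.3% of the pool in WT, 13.4% and 13.6% in nup136, 7.95% and 7.59% in the triple mutant and 9.67% and 10.2% where nup82 nup136 was the label. Its share was therefore close to WT in nup136 and lowest in the triple mutant. Carriers of nup136 differed from non-carriers by -1.23 points, with the same sign in 2 of 4 backgrounds (adjusted p = 0.177, exact permutation test). RBCS1B made up 2.54% and 2.02% in WT and 3.00% and 2.93% in the triple mutant, above every other library. From counts not divided by length, the mean RBCS1B share was 3.37% ± 0.55 in WT and 4.35% ± 0.08 in the triple mutant. Its share did not pass for any mutation (adjusted p = 0.233 for nup136, 0.233 for nup82 and 0.478 for nup50c, exact permutation test). Shares in single genotypes were not tested against WT.

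The RBCS1A share was also higher in carriers of nup82, by 2.81 points, and of nup50c, by 2.02 points (adjusted p = 0.0203 for both, exact permutation test, and the same sign in 4 of 4 backgrounds). For each mutation the libraries did not overlap in 3 of these backgrounds. The mean share was 58.2% under the label nup50c nup82, against 57.9% in nup50c and 58.0% in nup82. In the triple mutant it was 66.7%, against 61.6% in nup50c nup136 and 63.0% under the label nup82 nup136. Carriers of nup82 had a smaller share of RBCS2B (-2.13 points, adjusted p = 0.0354) and of RBCS3B (-0.86 points, adjusted p = 0.0324), and carriers of nup50c of RBCS2B (-1.17 points, adjusted p = 0.0354), by the same exact permutation test. These 3 smaller shifts depended on single libraries. The RBCS2B call of nup82 was lost without WT replicate 1 (adjusted p = 0.0513) or nup136 replicate 1 (0.054), its RBCS3B call without WT replicate 2, nup82 replicate 1, nup136 replicate 1, nup50c nup136 replicate 1, nup82 nup136 replicate 2 or triple mutant replicate 1 (0.0589 to 0.0678), and the RBCS2B call of nup50c without WT replicate 1, nup50c replicate 2, either library of nup136 or nup50c nup136, or nup82 nup136 replicate 2 (0.0501 to 0.0737).

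**Figure D3:**
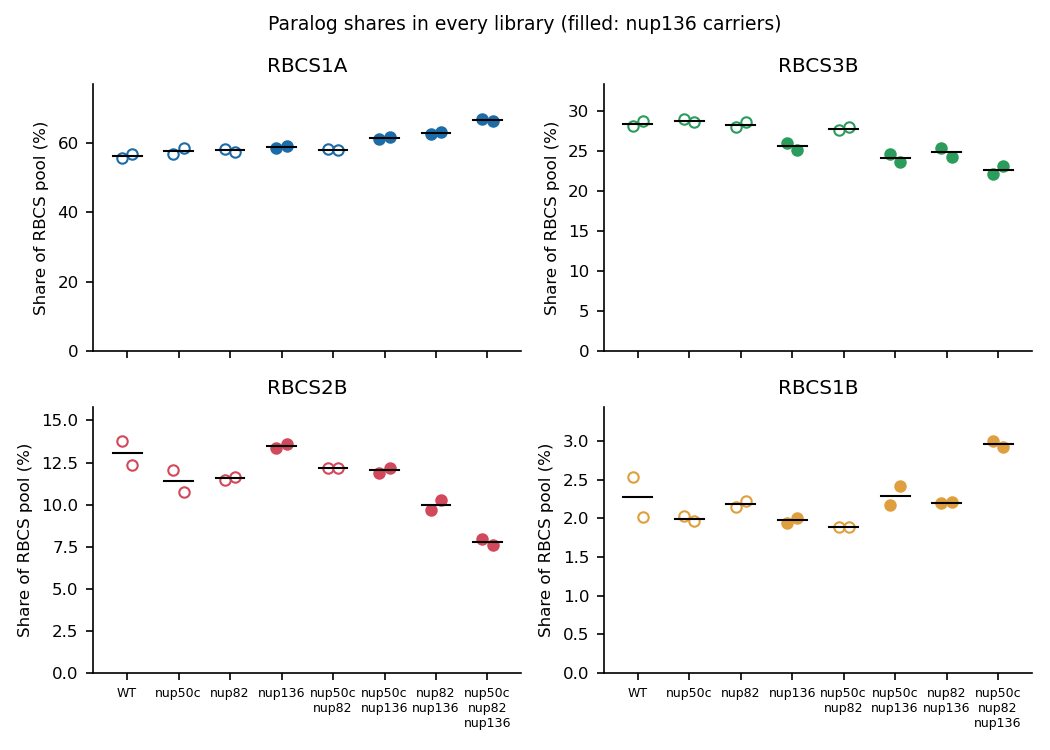
Share of each RBCS gene in the pool in percent (vertical axes, from 0) in every library of the 8 genotypes, with bars for the mean of 2 and filled points for carriers of nup136. The RBCS1A share is 56.3% on average in WT and 66.7% in the triple mutant, the RBCS3B and RBCS2B shares are lowest there, and the RBCS1B share is highest.

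The pool as a whole stood at 15940.5 ± 590.0 CPM per kb in WT, 11982 ± 923 in nup136, 12407 ± 1026 in nup50c nup136, 13833 ± 178 in the libraries labelled nup82 nup136 and 11233 ± 264 CPM per kb in the triple mutant, 70.5% of WT. In 3 of 4 backgrounds the pool was lower with nup136 and its libraries did not overlap, and in nup82, with 13550 ± 429 CPM per kb, the addition of nup136 left it within the spread. The log2 pool was lower by 0.26 in carriers of nup136 (adjusted p = 0.0203, exact permutation test), and differed by -0.05 and -0.02 in carriers of nup50c and nup82 (adjusted p = 0.492 and 0.838). The log2 ratio of RCA to the pool differed by -0.07 in carriers of nup136 (adjusted p = 0.495, exact permutation test), an average with the same sign in 2 of 4 backgrounds. It was -2.97 ± 0.07 in WT and -2.72 ± 0.16 in nup136, -2.83 ± 0.05 in nup50c and -2.80 ± 0.05 in nup50c nup136, -2.68 ± 0.10 in nup82 and -3.15 ± 0.10 in those labelled nup82 nup136, and -2.90 ± 0.20 under the label nup50c nup82 and -2.99 ± 0.05 in the triple mutant. With nup136 added the mean was thus higher than in WT or nup50c and lower than in the other 2 backgrounds, and the libraries did not overlap in 2 of the 4.

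Where mutations met, several members departed from the sum of the log2 effects of the single mutations. In the libraries labelled nup82 nup136, RBCS1A, RBCS1B and RBCS3B were higher than that sum, by 0.50 ± 0.11, 0.65 ± 0.12 and 0.40 ± 0.11 (adjusted p = 0.00407, 0.000944 and 0.0224), 3 of 5 members against 3.44% of all genes. For RBCS1A the labelled libraries stood at 11111 and 11004 CPM, while the single mutants stood at 8428 to 10103 CPM, below them without overlap. The mutated gene NUP136 was itself higher than the sum in the labelled libraries, by 0.65 ± 0.17 (edgeR, adjusted p = 0.02). The part of this in the departures of the members was not tested. The RBCS3B departure did not pass without WT replicate 2, nup82 replicate 1, nup136 replicate 1 or nup82 nup136 replicate 1 (adjusted p = 0.0688 to 0.12). RBCS1B was higher than the sum in nup50c nup136 by 0.59 ± 0.12 (adjusted p = 0.00316), 1 of 5 members against 2.45% of all genes. RBCS2B was higher than the sum in the libraries labelled nup50c nup82 by 0.60 ± 0.12 (adjusted p = 0.00239), 1 of 5 members against 2.31% of all genes.

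The three-way term, the part of the triple mutant's change left after the single effects and the 3 pairwise departures, was negative for RBCS2B (-1.15 ± 0.17, adjusted p = 6.29e-05), RBCS3B (-0.69 ± 0.16, 0.00506) and RBCS1A (-0.63 ± 0.15, 0.00846). That is 3 of 5 members against 4.46% of all genes. The term subtracts the pairwise departures, which were positive for these 3 genes. A negative term by itself thus does not place the triple mutant below the sum of the single effects. RBCS1A changed by -0.26 in the triple mutant, against -0.11 in nup50c, -0.19 in nup82 and -0.35 in nup136. For RBCS2B the change was -1.25, against -0.34, -0.41 and -0.36 in the same single mutants. RBCS1B (-0.44 ± 0.17, adjusted p = 0.117) and RCA (-0.09 ± 0.14, adjusted p = 0.788) did not pass. RCA passed in none of the 4 terms, with the largest departure of -0.27 ± 0.10 in the libraries labelled nup82 nup136 (adjusted p = 0.0897, and 0.0411 with the DESeq2 Wald test). NUP136 also had a negative three-way term (-0.81 ± 0.25, adjusted p = 0.0392, edgeR). The terms use the same libraries and are not independent.

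**Figure D4:**
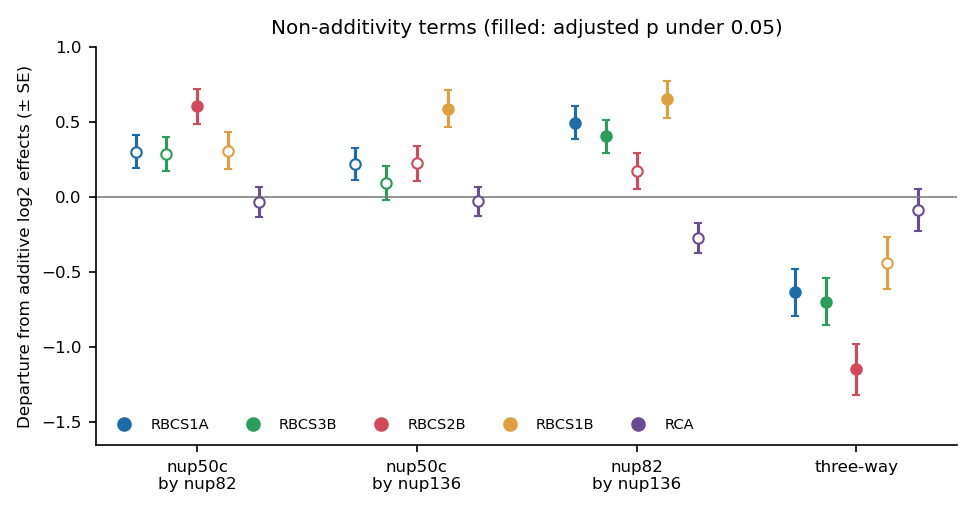
Departure from additive log2 effects with its SE (vertical axis) for the 5 genes in the 3 pairwise terms and the three-way term, filled where the adjusted p was under 0.05. The RBCS genes lie above 0 in the pairwise terms and below 0 in the three-way term, while RCA passed in none. The three-way term subtracts the pairwise terms, so its sign does not give the position of the triple mutant against the sum of the single effects.

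RBCL, the plastid gene of the large subunit, stood at 48.7 and 43.1 CPM in WT and 27.8 and 23.2 CPM in the triple mutant, a fall of 0.85 ± 0.20 on the log2 scale (adjusted p = 0.00373). The triple mutant lay below WT without overlap. The other mutants held 25.4 to 49.1 CPM, with the lowest value in nup136, whose other library stood at 40.7 CPM, and none of them passed the test against WT (adjusted p = 0.14 to 0.953). In nup136 the change of -0.47 ± 0.19 rested on single libraries: it was -0.85 without replicate 1 (adjusted p = 0.000412) and -0.17 without replicate 2 (0.57), and it passed without the low-count filter (2e-04). Averaged over backgrounds, carriers of nup136 had lower RBCL (-0.26 ± 0.10, adjusted p = 0.0414), a call lost with library totals (0.0717), with a replicate block (0.0593) and without WT replicate 1, either library of nup50c, nup50c nup136 or nup82 nup136, or replicate 2 of nup82, nup50c nup82 or the triple mutant (0.0552 to 0.102). Plastid transcripts took 0.0265% to 0.0474% of counts in these mRNA libraries, so the RBCL level is not set beside those of the nuclear genes. This share was 0.0436% and 0.0386% in WT, and 0.0287% and 0.0265% in the triple mutant. In nup136 it was 0.0361% and 0.0296%, the lower value in the library with the lower RBCL. RBCL counts toward the share, and whether RBCL changed more than other plastid transcripts was not tested.

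The lists of genes that act with Rubisco are read against all genes tested, of which 24.3% were lower and 23.3% higher in the triple mutant. Of 20 genes of the Calvin-Benson cycle, 15 were lower and 2 higher than WT, with a median log2 change of -0.39 (all genes tested, -0.00). The higher count became 1 without the low-count filter, and when any 1 library of WT, nup50c, nup82, nup50c nup82 or the triple mutant was left out. CP12-2, a small regulator that binds GAPDH and phosphoribulokinase, fell from 221 ± 24.2 to 113 ± 6.62 CPM (-0.96 ± 0.10, adjusted p = 3.96e-08). CP12-3, of the same family, the transketolase TKL1 and HCEF1, a plastid fructose bisphosphatase, fell by 0.77 ± 0.21, 0.66 ± 0.07 and 0.64 ± 0.08 on the log2 scale (adjusted p = 0.00442, 2.74e-08 and 1.31e-07). Of 17 genes of Rubisco assembly, 11 were lower and 0 higher, with a median of -0.24. RBCX1, a chaperone of the large subunit, fell from 51.9 ± 2.89 to 25 ± 0.141 CPM (-1.05 ± 0.09, adjusted p = 8.95e-10), and the plastid chaperonin genes CPN60B1, CPN10-2 and CPN60B4 by 0.57, 0.54 and 0.42. The assembly count became 7 without WT replicate 2, 7 without triple mutant replicate 1 and 6 without triple mutant replicate 2.

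Photorespiration recycles the product that Rubisco makes with oxygen. Of 19 tested genes of this pathway, 16 were lower and 1 higher in the triple mutant, with a median of -0.43. PLGG1, the plastid glycolate and glycerate transporter, fell from 269.7 ± 6.30 to 111.0 ± 0.709 CPM (-1.28 ± 0.08, adjusted p = 1.99e-12). GLDP1, a subunit of mitochondrial glycine decarboxylase, GLU1, the ferredoxin-dependent glutamate synthase, and HPR1, a peroxisomal hydroxypyruvate reductase, fell by 1.08 ± 0.10, 0.76 ± 0.08 and 0.72 ± 0.08 (adjusted p = 3.05e-08, 2.06e-08 and 2.51e-08). Of 33 photosystem and antenna genes, 31 were lower and 0 higher, with a median of -0.68, and LHCB1.1, an antenna protein of photosystem II, fell from 2539 ± 81.3 to 804 ± 6.27 CPM (-1.66 ± 0.07, adjusted p = 2.59e-15). Over the same libraries 9 of 14 root markers were lower and 1 higher, with a median of -1.11, and the 3 seed markers were higher, again beside 24.3% lower and 23.3% higher of all genes. The part of cell types in these changes was not tested.

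Regulators of light and plastid signals moved both ways in the triple mutant, 6 of 16 lower and 6 higher (24.3% and 23.3% of all genes), with a median of -0.10. PIF4, a bHLH factor of light and temperature signals, fell from 80.5 ± 3.08 to 29.2 ± 0.139 CPM (-1.46 ± 0.08, adjusted p = 1.88e-13). PIF3, of the same family, rose from 14.7 ± 0.680 to 30.8 ± 0.119 CPM (1.07 ± 0.13, adjusted p = 1.26e-07). GNC and GNL, GATA factors that promote greening, rose by 1.03 ± 0.15 and 1.02 ± 0.35 (adjusted p = 2.84e-06 and 0.0172). The higher count became 3 without triple mutant replicate 1.

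**Figure D5:**
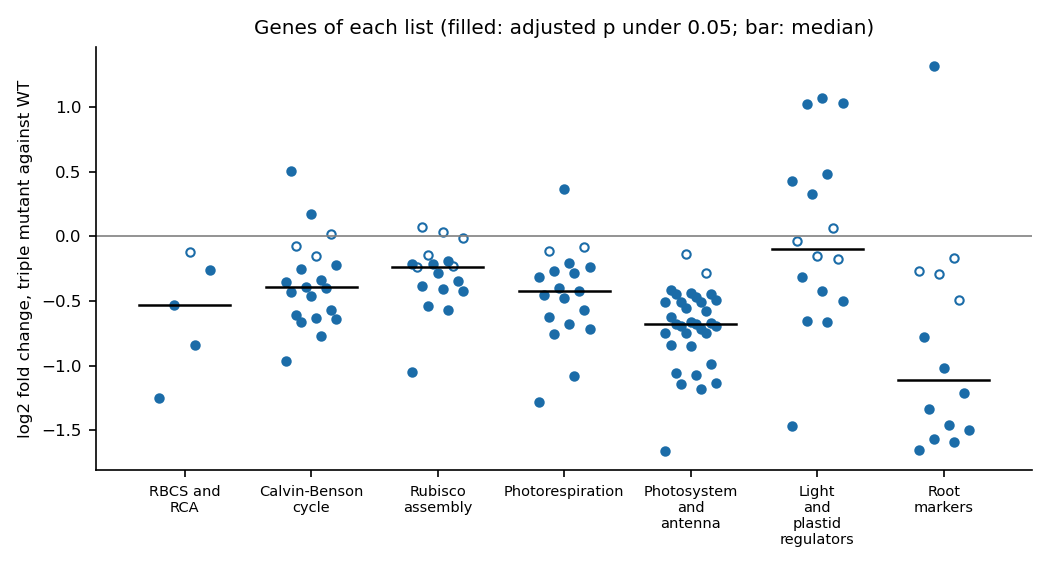
Log2 fold change of the triple mutant against WT (vertical axis) for each gene of 7 lists, filled where the adjusted p was under 0.05, with bars for list medians. The photosystem and antenna median, -0.68, and the root marker median, -1.11, lie below the medians of the Calvin-Benson (-0.39), photorespiration (-0.43) and assembly lists (-0.24), and the light regulators spread on both sides of 0.

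The same lists were counted in the other genotypes, and differences between those genotypes were not tested. In nup136, where 7.83% of all genes were lower and 6.56% higher, 10 of 20 Calvin-Benson genes, 13 of 17 assembly genes and 12 of 19 photorespiration genes were lower and 0 higher, led by the isomerase RPI3 (-0.65 ± 0.08), RBCX1 (-0.74 ± 0.09) and the dicarboxylate transporter DIT1 (-0.72 ± 0.09), while 2 of 33 antenna genes were lower and 2 higher, near those shares. In nup50c nup136 (13.1% of all genes lower), 12 Calvin-Benson, 9 assembly, 11 photorespiration and 15 antenna genes were lower and 0 of each higher. In the libraries labelled nup82 nup136 (11.3% of all genes lower), the lower counts were 7, 2, 9 and 23, and 1 assembly gene, the chaperonin gene CPN60A2, was higher. In nup50c, nup82 and the libraries labelled nup50c nup82, 0 genes of the Calvin-Benson, assembly and photorespiration lists passed the edgeR test. At an unadjusted p under 0.05 in that test, the numbers of these lists, with 20, 17 and 19 genes tested, were 1, 2 and 2 in nup50c. They were 4, 1 and 3 in nup82, and 3, 5 and 4 under the label nup50c nup82. The share of all genes at that unadjusted threshold is not given here, so these numbers are not read as more or fewer than among all genes. Root markers were lower for 6 of 14 in nup136, 10 in nup50c nup136 and 7 with the label nup82 nup136, and their part in these counts was not tested.

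Across the 16 libraries the members did not all vary together. The Pearson r of log2 CPM was 0.84 between RBCS2B and RBCS3B, 0.81 between RBCS2B and RCA, 0.77 between RBCS1A and RBCS3B and -0.04 between RBCS1B and RBCS2B. These are descriptions over libraries that share genotypes and scaling. Among 13373 protein-coding genes with a mean of at least 10 CPM, the patterns most similar to RBCS3B by Pearson r were those of CA1, a plastid carbonic anhydrase, AT1G12230 and 2-Cys Prx B, a plastid peroxiredoxin (r = 0.98, 0.96 and 0.96), and 157 genes reached r of 0.9. For RBCS2B they were PSAH-1, a subunit of photosystem I, F8H and AT2G10940 (r = 0.97 for each), among 89 such genes. For RCA they were AT1G19110, FRO6, a ferric reductase, and SQE3, a squalene epoxidase (r = 0.97, 0.97 and 0.96), among 244. For RBCS1A they were RPL12-C, a plastid ribosomal protein, AT3G11630 and RPH1 (r = 0.96, 0.95 and 0.94), among 8. RBCS1B had 1 gene at that level, Tic20-V, of a family of the plastid import machinery (r = 0.92), followed by PMSR4, a methionine sulfoxide reductase, and Z-ISO, a carotenoid isomerase (r = 0.83 and 0.82). The order depends on the measure: by Spearman rho the 3 genes named for RCA ranked 343, 88 and 35 and AT2G10940 ranked 29 for RBCS2B, while the others named ranked 1 to 9. By Pearson r of genotype means, AT1G12230 and 2-Cys Prx B ranked 50 and 36 for RBCS3B, and PMSR4 ranked 19 for RBCS1B. AT1G19110, FRO6 and SQE3 then ranked 9, 35 and 20 for RCA, and the others named ranked 1 to 10.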

How the data were processed

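Reads of strand-specific mRNA libraries were processed with HISAT2 2.0.4, HTSeq 0.6.1p1 and the TAIR10 build, per the submitters' processing notes, and the sources used here do not give further settings. The deposited values used are raw whole-number counts per gene, with the authors' gene lengths. The deposited FPKM are these counts divided by length and a library constant, and were not used.

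Genes passing filterByExpr (minimum count 10) were fitted with the quasi-likelihood test of edgeR 4.0.16 (R 4.3.3, robust, TMM scaling, 1 coefficient per genotype, 8 residual degrees of freedom), with Benjamini-Hochberg adjustment over 22427 genes and a threshold of 0.05. The 17 comparisons were 7 against WT, 3 of the triple with double mutants, 3 averaged effects and 4 terms of non-additivity. Shares came from counts divided by gene length, tested by exact permutation in Python 3.11.15. Their 95% Wilson intervals, at most 0.123 percentage points to each side, cover counting error only. Positions and sequences are from RefSeq TAIR10.1, in which 32548 identifiers matched, 32520 with the same start and end, all 5 members among them.

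Named are the 5 members, RBCL and the mutated genes. Per list, up to 4 genes past the threshold with the largest change in the triple mutant and up to 2 in other comparisons were named, and per member the 3 protein-coding genes with the highest r. Members and lists were chosen with earlier results of these data known. PGLP1 had too few counts to be tested. The fit was tested on simulated data. Alternatives were DESeq2 1.42.0 size factors and its Wald test, library totals, scaling without members and organelle genes, no filter, fits limited to the genotypes compared, a replicate block and each library left out; for shares, counts not divided by length and, chosen after seeing the data, coding length.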

Additional observations from a re-analysis of the deposited data

Results flagged for a closer look

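The effect of a mutation differed between backgrounds for several members, by the edgeR test of the departure from additive log2 effects. RBCS2B passed in the term of nup50c combined with nup82 (0.60), and RBCS1B in that of nup50c combined with nup136 (0.59). In the term of nup82 combined with nup136, RBCS1A (0.50), RBCS1B (0.65) and RBCS3B (0.40) passed. In the three-way term RBCS2B (-1.15), RBCS3B (-0.69) and RBCS1A (-0.63) passed. RBCL also passed there (-1.49 ± 0.39, adjusted p = 0.0336), a call lost when any of 9 libraries was left out (WT replicate 1, nup50c replicate 2, nup82 replicate 1, nup50c nup82 replicate 2, both of nup50c nup136, both of nup82 nup136 and triple mutant replicate 2; adjusted p = 0.0582 to 0.098), and under a replicate block (0.0529). With 2 libraries a genotype, no library could be tested as standing apart from its group.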

How the results depend on the processing

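No value that passed its test, in the main setting or the alternative, turned its direction. The sign turned for 31 results that did not pass, by 79 values with adjusted p of at least 0.375. Library totals turned RCA in nup50c (0.0090), NUP82 in nup136 (0.016), and RBCS1A and RBCL in nup82 nup136 (0.012 and 0.013), and the DESeq2 size factors and Wald test turned RBCS1A in nup50c nup82 (-0.0059 in both). Size factors of DESeq2 and scaling without the members and organelle genes moved no count of members by over 1.5 times. Without the low-count filter, members lower became 4 in nup82, 1 in nup50c nup82, 2 for nup50c averaged and 1 in the nup82 nup136 departure, and members higher 1 in the triple against nup50c nup82, 1 against nup50c nup136 and 3 in the nup50c nup82 departure. A fit of only the genotypes compared gave 2 lower in nup82, and 1 higher in the triple against nup50c nup82 and against nup50c nup136. Library totals gave 3 lower in nup50c nup136 and 2 for nup50c averaged. The DESeq2 Wald test gave 1 lower in nup50c nup82, 2 for nup50c averaged and 1 in the nup82 nup136 departure, and 1 higher in the triple against nup50c nup136. The causes were not tested.

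With 1 library left out, these differences on the log2 scale ranged across 0. RBCL ranged from -0.23 to 0.098 (nup50c nup82), -0.12 to 0.045 (nup82 averaged) and -0.13 to 0.049 (nup82 nup136). RBCS1A ranged from -0.032 to 0.021 (nup50c averaged), -0.11 to 0.11 (nup50c nup82), -0.094 to 0.013 (nup82 nup136) and -0.10 to 0.066 (the triple against nup50c nup136). RBCS1B ranged from -0.023 to 0.041 (nup50c averaged) and -0.24 to 0.016 (the triple mutant). RBCS3B ranged from -0.029 to 0.20 (nup50c nup136 departure) and -0.18 to 0.013 (nup50c nup82). RCA ranged from -0.034 to 0.021 (nup50c), -0.081 to 0.017 (nup50c nup136 departure), -0.020 to 0.058 (nup50c nup82), -0.070 to 0.0087 (nup50c nup82 departure) and -0.17 to 0.013 (the three-way term). The log2 ratio of RCA to the pool ranged from -0.039 to 0.032 (nup50c averaged). The log2 pool ranged from -0.043 to 0.0089 (nup82 averaged). NUP136 ranged from -0.11 to 0.13 (nup50c), -0.16 to 0.079 (nup50c nup136 departure) and -0.12 to 0.0014 (the triple against nup50c nup136). NUP50C ranged from -0.0011 to 0.091 (nup136), -0.0025 to 0.14 (nup136 averaged), -0.15 to 0.018 (nup82), -0.012 to 0.17 (nup82 nup136) and -0.37 to 0.20 (the triple against nup50c nup136). NUP82 ranged from -0.14 to 0.10 (nup136), -0.11 to 0.14 (nup50c), -0.18 to 0.064 (nup50c nup136), -0.18 to 0.067 (nup50c nup136 departure) and -0.060 to 0.18 (the three-way term).

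With 1 library left out, members lower ranged from 0 to 2 in nup50c, 0 to 1 in nup82, 2 to 4 in nup136, 0 to 1 in nup50c nup82, 3 to 5 in nup50c nup136, 1 to 2 for nup50c averaged, 1 to 2 for nup82 averaged and 0 to 1 in the nup82 nup136 departure. Members higher ranged from 0 to 1 in the triple against nup50c nup82 and against nup50c nup136. Share differences ranged from -1.35 to -0.99 (RBCS2B) and -1.11 to -0.84 points (RBCS3B) for nup50c, and from 0.11 to 0.24 (RBCS1B), -2.31 to -1.95 (RBCS2B) and -0.99 to -0.72 points (RBCS3B) for nup82. The lone library left in a genotype was assumed to vary like the others.

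The RBCS3B share difference of nup50c, -0.98 points (adjusted p = 0.0513), was -1.14 points with counts not divided by length and -1.14 with coding length (adjusted p = 0.0432 for both). The labels do not say whether replicate numbers pair the samples. The deviations between replicates were at most weakly related across genotypes, with 2 of 28 genotype pairs over a correlation of 0.1 (range -0.115 to 0.118). Such low correlations do not settle whether samples of the same number shared a culture or run. With a replicate block, members lower became 2 for nup50c averaged and members higher 1 in the triple against nup50c nup136. Permuting within that block allows fewer arrangements, and these exact permutation tests no longer passed: for nup50c the RBCS1A share (2.02 points, adjusted p = 0.0547), RBCS2B share (-1.17, 0.0656) and log2 RBCS1A ratio (0.12, 0.0547), for nup82 the same 3 (2.81, 0.0547; -2.13, 0.0895; 0.17, 0.0547), and for nup136 the log2 pool (-0.26, 0.0547).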
